A study of Homo sapiens with 6 samples.

Results

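Of the 10 genes described here, HIF1A and EPAS1 encode alpha subunits of the hypoxia-inducible factors (HIF) and the other 8 are known targets. These 10 genes are STC1, STC2, ADM, VEGFA, BNIP3, NDRG1, EGLN3, ANKRD37, HIF1A and EPAS1. They were taken by symbol from a table of 23346 gene rows, in which all 10 have a row, and all 10 were among the 14776 genes tested, whose mean over the libraries reached 0.5 RPKM (reads scaled by gene length in kilobases and by library depth). The RNA came from KhES-1, a human ES cell line in established use, on plates coated in both groups with laminin fragment (0.5 µg per square cm). Cells were kept in AKIT medium or, as the control, in Essential 8 (E8) medium. AKIT is known to replace the growth factors of E8, FGF2 and TGF-beta, by small molecules that inhibit GSK3, DYRK and calcineurin. The labels give no oxygen level, passage number or cell density. The comparison rests on 3 libraries from AKIT and 2 from E8 (replicates 1 and 2), while E8 replicate 3 was not analysed here.

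HIF is a transcription factor made of an alpha subunit, such as HIF1A or EPAS1 (HIF-2 alpha), and a beta subunit such as ARNT. With oxygen present, prolyl hydroxylases (EGLN1, EGLN2 and EGLN3) mark the alpha subunit for the VHL ubiquitin ligase, so that HIF activity is set largely at the level of the protein rather than of its mRNA. At low oxygen the dimer binds elements with the core letters ACGTG or GCGTG and raises genes of glycolysis, blood vessel growth, matrix and mitochondrial turnover, and human pluripotent stem cells are often grown at reduced oxygen. Several of these genes answer to other inputs as well: STC2, VEGFA and NDRG1 are also known from the ATF4 stress response.

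ADM and STC1 fell in AKIT, to between 5.26% and 27.8% of their mean E8 level in every AKIT library, while none of the other 8 genes passed the test. Each log2 difference below is the AKIT mean less the E8 mean of log2(RPKM + 1), ± its standard error. A gene "rose" or "fell" where limma gave an adjusted p (Benjamini-Hochberg, over all tested genes) under 0.05. Of the 10 genes 2 passed, both lower in AKIT, and 20.0% of all tested genes passed, 11.7% lower and 8.22% higher. The share among the 10 thus equalled that among all genes. None of the 10 rose, in limma on RPKM or in voom on recovered reads, and 2 higher genes (HIF1A and EPAS1) had an unadjusted p under 0.05. In 7 of the 10 genes the 2 groups did not overlap, as in 54.4% of all tested genes. The median log2 difference was -0.02 for the 10 genes and -0.01 for all tested genes. Of the 10 genes, 5 were higher and 5 lower on average. In bulk RNA, a change in the number of cells of a type and a change of RNA per cell cannot be told apart.

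Promoter sequences show where the core letters of the HIF element lie next to these genes. RefSeq windows (GRCh38.p14, a later build than that of the expression values) covered the 250 bases before the gene start. They were used for 7 of the 10 genes, 8 windows in all, as HIF1A has a second start. No window was used for STC1, which fell, or for VEGFA and NDRG1. Both strands were searched for ACGTG, found in 18.5% of the 35116 windows of all genes, and for GCGTG, found in 32.2% (either in 43.2%). At least 1 of them stood before 6 of the 7 genes, but the window of the second HIF1A start had neither. The shares over all genes count windows and not genes. The windows of ADM, which fell, and of BNIP3, with the most matches of either motif, and ANKRD37, with the most of ACGTG, neither of which passed the test, are shown 5′ to 3′ on the strand of the gene, with every match of either motif on either strand in capitals.
ADM, chr11:10304823-10305072, plus strand: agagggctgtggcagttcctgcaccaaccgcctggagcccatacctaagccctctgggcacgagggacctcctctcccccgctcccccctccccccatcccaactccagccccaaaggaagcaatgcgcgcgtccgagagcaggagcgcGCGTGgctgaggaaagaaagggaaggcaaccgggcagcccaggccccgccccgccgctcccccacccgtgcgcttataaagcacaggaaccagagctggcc
BNIP3, chr10:131981924-131982173, minus strand: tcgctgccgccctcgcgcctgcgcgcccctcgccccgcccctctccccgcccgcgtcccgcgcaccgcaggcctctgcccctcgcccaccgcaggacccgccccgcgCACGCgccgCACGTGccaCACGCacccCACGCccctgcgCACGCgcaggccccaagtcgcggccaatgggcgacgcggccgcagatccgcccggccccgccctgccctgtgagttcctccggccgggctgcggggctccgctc
ANKRD37, chr4:185396591-185396840, plus strand: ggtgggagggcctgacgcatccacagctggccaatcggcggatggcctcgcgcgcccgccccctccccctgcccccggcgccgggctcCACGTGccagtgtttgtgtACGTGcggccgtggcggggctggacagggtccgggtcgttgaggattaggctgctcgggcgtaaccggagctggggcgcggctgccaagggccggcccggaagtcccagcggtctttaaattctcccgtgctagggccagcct
ADM has a single GCGTG. BNIP3 has 4 matches of GCGTG, all on the opposite strand, and 2 of ACGTG that overlap each other in the palindrome CACGTG. ANKRD37 has 3 matches of ACGTG, of which 2 overlap in CACGTG, and none of GCGTG. STC2, not shown, has 3 matches of GCGTG, and EGLN3 has neither motif in this window. A match is a run of letters and not a measured binding site, and these letters are common in the windows of all genes.

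Reads behind the values were fewest for ANKRD37, EPAS1 and NDRG1. Totals of 16242864 to 23263095 reads per library were recovered from the steps of low RPKM values. Per library, ANKRD37 had 28 to 55 reads, EPAS1 90 to 395 and NDRG1 98 to 460, and STC2 had up to 7723. All 8 markers of pluripotent stem cells were detected in every library, from 7.60 RPKM for NANOG in AKIT replicate 2 to 1216 RPKM for PODXL in E8 replicate 2. AKIT libraries differed from each other more than the E8 libraries did, with a chi-square per gene of 18.4 to 35.8 between AKIT libraries and 3.51 between the E8 libraries. Of the 8 markers, SOX2 and PODXL fell (25.0% called, against 20.0% of all tested genes). Whether replicates came from separate cultures is not stated, and the p-values therefore reflect a spread between libraries that could be technical.

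**Figure D1:**
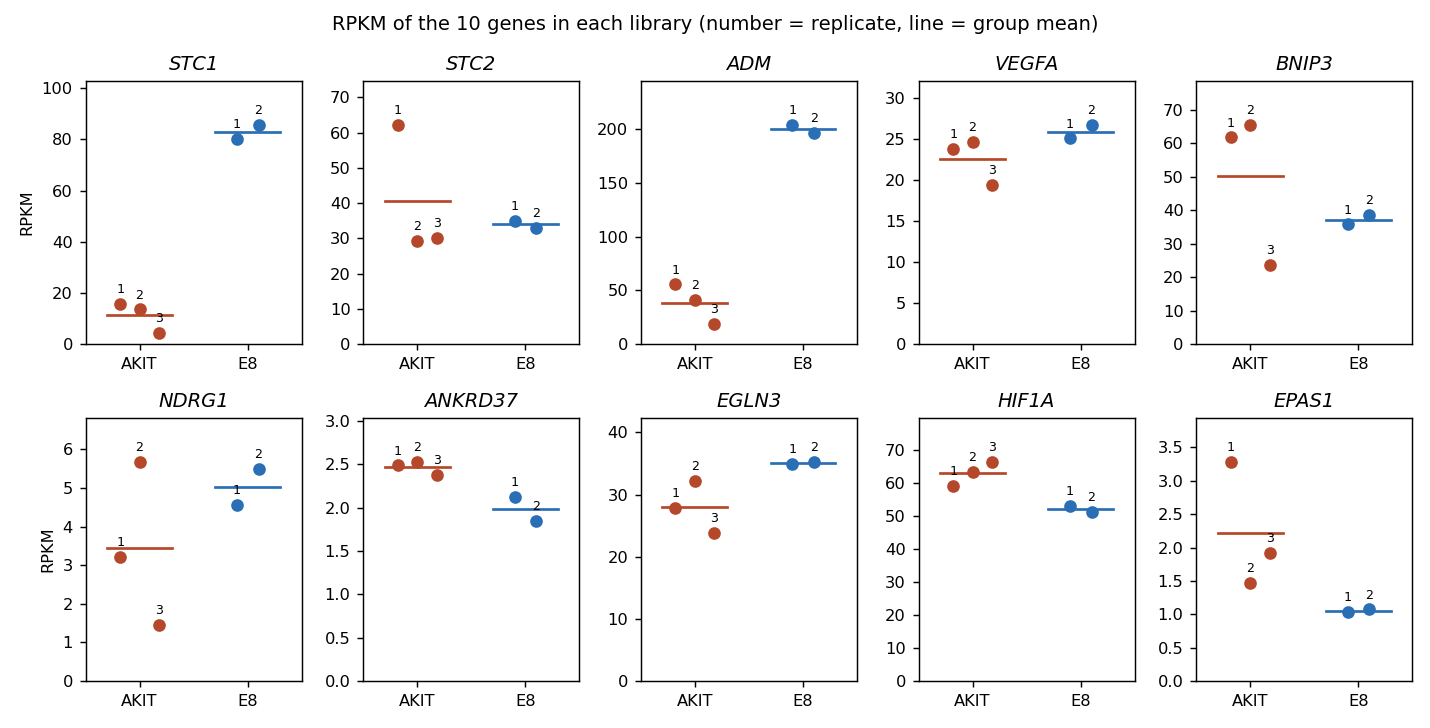
RPKM (vertical axes, from 0) of each of the 10 genes in each library. Red points are AKIT replicates 1 to 3, blue points E8 replicates 1 and 2, numbers give the replicate and lines the group means. ADM and STC1 are far lower in all 3 AKIT libraries than in both E8 libraries, and BNIP3, NDRG1 and STC2 have AKIT libraries on both sides of E8.

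Among the secreted ligands, ADM encodes adrenomedullin, a vasodilator peptide hormone. ADM stood at 55.6, 41.1 and 19.1 RPKM in AKIT replicates 1, 2 and 3, against 204 and 196 RPKM in E8 replicates 1 and 2. Every AKIT library lay far below both E8 libraries, and AKIT replicate 3 was the lowest. The mean was 38.6 ± 18.4 RPKM in AKIT (SD, n = 3) and 199.9 ± 5.42 RPKM in E8 (SD, n = 2), a 5.18-fold lower level (log2 difference -2.47 ± 0.38, limma adjusted p = 0.00761). In E8, ADM had the highest level per length of the 10 genes, and in AKIT it ranked 4.

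STC1 encodes stanniocalcin 1, a secreted glycoprotein linked to calcium and phosphate handling. STC1 stood at 15.7, 13.6 and 4.36 RPKM in AKIT replicates 1, 2 and 3, against 80.1 and 85.6 RPKM in E8 replicates 1 and 2. As with ADM, the groups were far apart and AKIT replicate 3 was the lowest, at 5.26% of the E8 mean, against 19.0% and 16.4% in AKIT replicates 1 and 2. The mean was 11.2 ± 6.04 RPKM in AKIT and 82.8 ± 3.93 RPKM in E8, or 7.38-fold lower in AKIT (log2 difference -2.94 ± 0.45, limma adjusted p = 0.00692). Both calls ended on the adjusted p when a single E8 library was left in the fit. Without E8 replicate 1 it was 0.061 for STC1 and 0.069 for ADM, and without E8 replicate 2 it was 0.0627 and 0.063 (limma, range over all 15 alternatives 0.000828 to 0.0627 for STC1 and 0.00104 to 0.069 for ADM), while the log2 differences stayed between -2.99 and -2.44 in these fits.

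STC2, the paralog of STC1 and a known inhibitor of the IGF-binding-protein protease PAPP-A, did not follow it. STC2 stood at 62.2, 29.2 and 30.1 RPKM in AKIT replicates 1, 2 and 3, against 35.1 and 33.0 RPKM in E8 replicates 1 and 2. AKIT replicate 1 was the highest library and AKIT replicates 2 and 3 lay below both E8 libraries, so the groups overlapped. The log2 difference was 0.16 ± 0.31 (limma adjusted p = 0.75, 95% interval -0.57 to 0.88), and without AKIT replicate 1 it was -0.19 (limma adjusted p = 0.227, range over all alternatives 0.227 to 0.911). VEGFA, the vascular endothelial growth factor A gene, stood at 23.8, 24.6 and 19.5 RPKM in AKIT and at 25.1 and 26.7 RPKM in E8. All AKIT libraries were below both E8 libraries by a small margin, and the difference did not pass (log2 difference -0.19 ± 0.12, limma adjusted p = 0.303, 95% interval -0.49 to 0.10). The interval of VEGFA does not reach those of ADM (-3.38 to -1.56) and STC1 (-3.99 to -1.88).

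**Figure D2:**
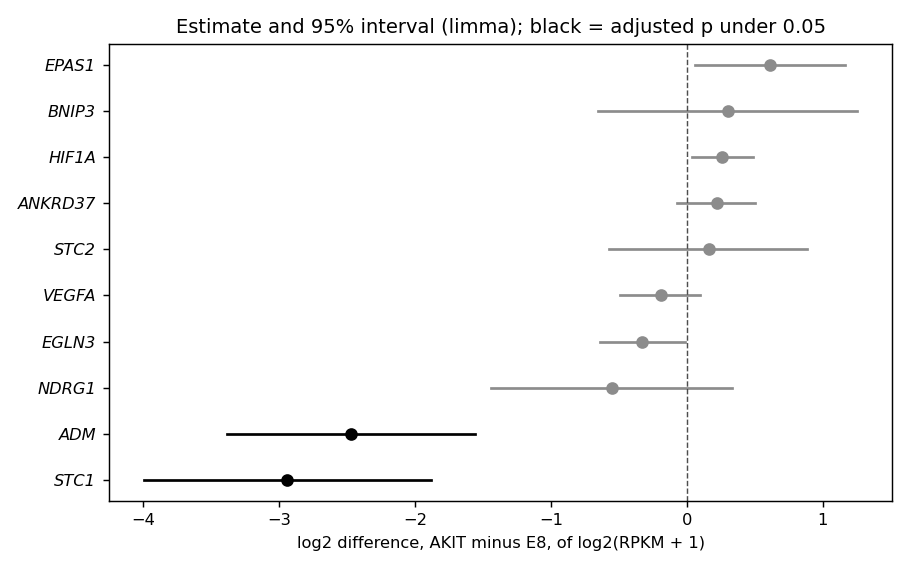
Log2 difference of each of the 10 genes (horizontal axis, AKIT minus E8, log2(RPKM + 1)) with its 95% interval from limma. Black marks genes with an adjusted p under 0.05, and these are STC1 at -2.94 and ADM at -2.47. The other 8 genes, in grey, lie between -0.55 and 0.61.

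Of the targets that act inside the cell, BNIP3 encodes a receptor for the removal of mitochondria by autophagy. BNIP3 stood at 61.7, 65.5 and 23.7 RPKM in AKIT replicates 1, 2 and 3, against 35.8 and 38.5 RPKM in E8 replicates 1 and 2. AKIT replicates 1 and 2 lay above both E8 libraries and AKIT replicate 3 below both. Over all libraries the difference did not pass (log2 difference 0.30 ± 0.40, limma adjusted p = 0.631). Without AKIT replicate 3 BNIP3 rose by 0.76 (limma adjusted p = 0.0134), and without AKIT replicate 2 the log2 difference was 0.05 (limma adjusted p = 0.934), which are the ends of the range over all alternatives. RefSeq names 46 pseudogenes of BNIP3, none of them among the genes used here, so that reads from near-identical copies may be counted here and the level is uncertain.

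NDRG1 encodes a cytoplasmic protein induced by stress and differentiation. NDRG1 stood at 3.21, 5.69 and 1.45 RPKM in AKIT replicates 1, 2 and 3, against 4.56 and 5.51 RPKM in E8 replicates 1 and 2. AKIT replicate 2 was the highest of all libraries and AKIT replicate 3 the lowest, a 3.91-fold span within AKIT against 1.21-fold within E8. The log2 difference was -0.55 ± 0.37 (limma adjusted p = 0.333). Without AKIT replicate 2 NDRG1 fell by 0.90 (limma adjusted p = 0.0384), in a fit that called 32.2% of all tested genes. Over the alternatives that kept both E8 libraries the adjusted p was 0.0384 to 0.65. ANKRD37, an ankyrin repeat gene known as a HIF target, was at 2.49, 2.53 and 2.37 RPKM in AKIT and 2.12 and 1.85 RPKM in E8. All AKIT libraries were above both E8 libraries, by less than the test could separate from the spread at 28 to 55 reads a library (log2 difference 0.22 ± 0.12, limma adjusted p = 0.247). In the RefSeq table ANKRD37 overlaps UFSP2 and LRP2BP, and the use of strand in counting is not given in the sources used here, so their reads may not be separable. UFSP2 had a log2 difference of 0.29 and LRP2BP of -0.04, neither called (limma adjusted p = 0.16 and 0.882).

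EGLN3 encodes the prolyl hydroxylase PHD3, both a HIF target and an enzyme that acts on the HIF alpha subunits. EGLN3 stood at 27.9, 32.2 and 23.8 RPKM in AKIT replicates 1, 2 and 3, against 35.0 and 35.3 RPKM in E8 replicates 1 and 2. All AKIT libraries were lower than both E8 libraries, and the difference did not pass over all genes (log2 difference -0.33 ± 0.13, limma adjusted p = 0.126). Without AKIT replicate 2 EGLN3 fell by 0.43 (limma adjusted p = 0.0199), in a fit that called 32.2% of all tested genes. Over the alternatives that kept both E8 libraries the adjusted p was 0.0199 to 0.277.

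The mRNAs of the alpha subunits HIF1A and EPAS1 were higher in every AKIT library than in E8, short of the threshold. HIF3A, a further alpha subunit, was lower in every AKIT library, also short of it (log2 difference -0.39 ± 0.14, limma adjusted p = 0.104). It had 3.15, 3.91 and 4.39 RPKM in AKIT replicates 1, 2 and 3, against 5.02 and 5.52 RPKM in E8. HIF1A stood at 59.2, 63.4 and 66.5 RPKM in AKIT replicates 1, 2 and 3, against 53.2 and 51.3 RPKM in E8 replicates 1 and 2 (log2 difference 0.26 ± 0.09, limma adjusted p = 0.0919, 95% interval 0.04 to 0.49). The groups did not overlap, and AKIT replicate 3 was the highest library. HIF1A had the highest mean level of the 10 genes in AKIT. Its antisense partner HIF1A-AS2 had a like log2 difference of 0.29 ± 0.10 (limma adjusted p = 0.0837), and without a statement on strand reads of the pair cannot be told apart.

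EPAS1 had the lowest level per length of the 10 genes in both media. EPAS1 stood at 3.29, 1.46 and 1.92 RPKM in AKIT replicates 1, 2 and 3, against 1.03 and 1.07 RPKM in E8 replicates 1 and 2. The groups did not overlap, and AKIT replicate 1 was the highest. The mean was 2.22 ± 0.95 RPKM in AKIT and 1.05 ± 0.0298 RPKM in E8 (log2 difference 0.61 ± 0.23, limma adjusted p = 0.109). Without AKIT replicate 2 EPAS1 rose by 0.79 (limma adjusted p = 0.0288), in a fit that called 32.2% of all tested genes. Over the alternatives that kept both E8 libraries the adjusted p was 0.0216 to 0.17. EPAS1 is known to be high in endothelial and mesenchymal cells, so markers of both are given beside it. COL3A1 was at 5.63, 2.15 and 0.141 RPKM in the AKIT libraries and LUM at 5.81, 1.83 and 0.0244 RPKM, with AKIT replicate 1 the highest as for EPAS1 and STC2. In E8, COL3A1 was at 0.0413 RPKM in replicate 1 and at 0 in replicate 2, and LUM was at 0 in both. DCN had 0.754 and 0.0685 RPKM in AKIT replicates 1 and 2, and 0 elsewhere. COL1A2, at 15.6, 10.55 and 11.5 RPKM in AKIT and 13.6 and 13.5 RPKM in E8, overlapped E8, with AKIT replicate 1 the highest. So did POSTN, at 0.560, 0.114 and 0.198 RPKM in AKIT and 0.235 and 0.1275 RPKM in E8. The other markers of the same list, COL1A1, PDGFRB and THY1, were lower in every AKIT library than in E8. COL1A1 was at 32.5, 41.8 and 38.7 RPKM in AKIT and 51.9 and 55.5 RPKM in E8, with AKIT replicate 1 the lowest. PDGFRB was at 1.43, 1.04 and 0.577 RPKM in AKIT and 3.46 and 3.35 RPKM in E8.

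Over all 8 fibroblast markers the summed level was 203 to 265 RPKM in AKIT and 344 to 346 RPKM in E8. Most of this sum was THY1, also known on pluripotent stem cells, at 145 to 203 RPKM in AKIT and 273 to 275 RPKM in E8, while COL3A1 and LUM were higher in AKIT and did not pass. Of the 6 that were tested, 3 fell and none rose. The neural markers summed to 187 to 228 RPKM in AKIT and 134 to 142 RPKM in E8, nearly all of it TUBB3, at 179 to 224 RPKM in AKIT and 128 to 136 RPKM in E8. DCX, the other neural marker tested, was not called (log2 difference -0.15). The markers of trophoblast and amnion summed to 5.53 to 13.5 RPKM in AKIT and 10.2 to 10.9 RPKM in E8, with members in both directions. Of the 5 tested, 2 fell, TFAP2A and KRT7 (log2 difference -1.32 and -1.28, limma adjusted p = 0.00616 and 0.00399). HAND1 and CGA were higher in every AKIT library and did not pass (log2 difference 1.1 and 0.8, limma adjusted p = 0.0776 and 0.176). GATA3 was not called (log2 difference -0.12). The 7 endothelial markers summed to 2.28 to 3.63 RPKM in AKIT and 4.80 to 5.07 RPKM in E8, and PECAM1 was at most 0.0193 RPKM in AKIT and 0.0277 RPKM in E8. The largest part was TEK, at 1.23 to 2.27 RPKM in AKIT and 2.86 to 3.01 RPKM in E8. TIE1 and ESAM were also lower in every AKIT library. CLDN5 was higher in each, at 1.15, 0.743 and 0.757 RPKM against 0.685 and 0.426 RPKM in E8. CDH5 had 0.604 RPKM (29 reads) in AKIT replicate 1 and at most 0.0298 RPKM in any other library. Of the 2 tested, TEK and CLDN5, neither was called (limma adjusted p = 0.0673 and 0.273). The part of such cells in the EPAS1 and STC2 values was not tested.

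**Figure D3:**
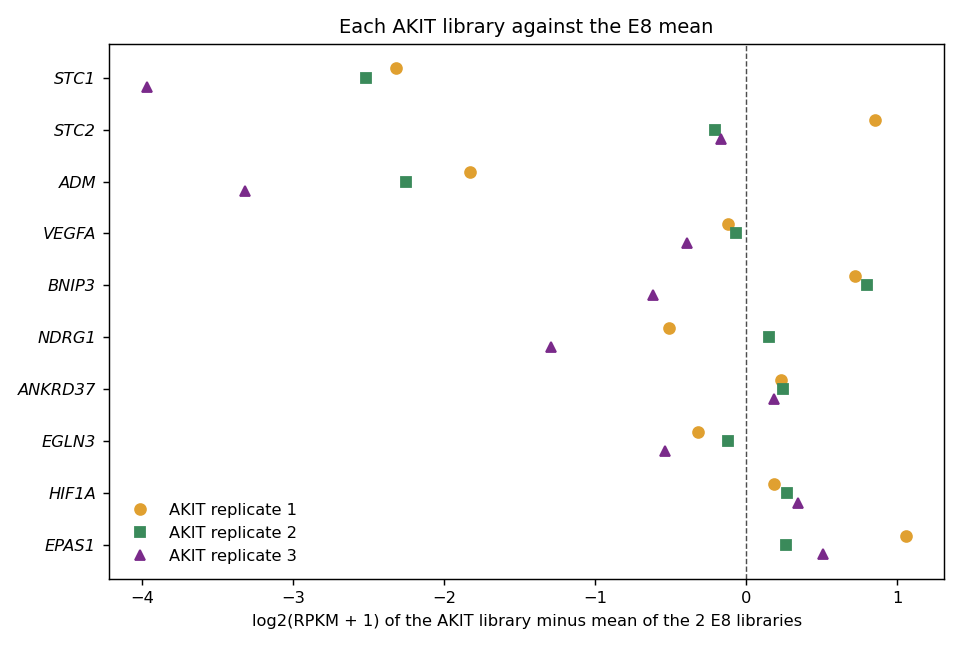
Each AKIT library against the mean of both E8 libraries, as a difference of log2(RPKM + 1) (horizontal axis), for the 10 genes. Circles, squares and triangles are AKIT replicates 1, 2 and 3. Replicate 3 is the leftmost of the 3 for STC1, ADM, VEGFA, BNIP3, NDRG1, ANKRD37 and EGLN3 and the rightmost for HIF1A, and replicate 1 is the rightmost for STC1, ADM, STC2 and EPAS1.

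The AKIT libraries also differed from each other. AKIT replicate 3 was the lowest of all 5 libraries for 6 of the 10 genes (60.0%), and for 18.6% of all tested genes. It was below both other AKIT libraries for 7 of the 10, against 28.0% of all tested genes. The median log2 difference of AKIT replicate 3 from the mean of AKIT replicates 1 and 2 was -0.40 for the 10 genes and 0.02 for all tested genes. It was -1.54 for STC1, -1.39 for BNIP3, -1.28 for ADM and -1.11 for NDRG1. These are descriptions of 1 library, with no test.

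Other known HIF targets, taken from lists of the pathway, mostly did not pass the test between the media. Of 20 tested glycolytic targets, 0 rose and 0 fell, while 20.0% of all tested genes were called. The median log2 difference of these targets was 0.15, with a range of -0.29 to 0.41. Voom on recovered reads also called 0, and in limma 2 genes, both higher, had an unadjusted p under 0.05. These were GPI, glucose-6-phosphate isomerase (78.2 ± 13.6 RPKM in AKIT and 58.3 ± 2.46 in E8, limma adjusted p = 0.0926), and ALDOA, an aldolase (215 ± 24.7 in AKIT and 172 ± 7.85 in E8, limma adjusted p = 0.113). Of 33 tested further targets, 1 fell and 0 rose (3.03% called, against 20.0% of all tested genes), with a median of 0.03. Voom gave the same counts, and in limma 4 higher and 3 lower genes had an unadjusted p under 0.05. The gene that fell was IGFBP3, an IGF-binding protein, at 13.6, 7.43 and 5.39 RPKM in AKIT and 26.2 and 24.2 RPKM in E8 (log2 difference -1.50 ± 0.31, limma adjusted p = 0.0193). Its call ended without E8 replicate 1 or 2 (limma adjusted p = 0.136 and 0.116, range over all alternatives 0.00436 to 0.136). CA9, a carbonic anhydrase often used as a marker of hypoxia, did not reach the filter, at 0.133 to 0.581 RPKM in AKIT and 0.219 to 0.277 in E8.

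In both of these lists AKIT replicate 3 was mostly the lowest AKIT library. AKIT replicate 3 was below both other AKIT libraries for 16 of 20 glycolytic targets (80.0%) and 29 of 33 further targets (87.9%), against 28.0% of all tested genes. The median log2 difference from AKIT replicates 1 and 2 was -0.54 and -0.66 for these lists. SLC16A3, a lactate transporter, stood at 34.4, 35.1 and 3.70 RPKM in AKIT replicates 1, 2 and 3, against 11.4 and 16.3 RPKM in E8. PDK1, a kinase that holds back pyruvate dehydrogenase, was at 11.2, 13.4 and 4.20 RPKM in AKIT and 7.02 and 8.11 RPKM in E8. NDUFA4L2, a mitochondrial protein known as a HIF target, had 16.1 and 26.3 RPKM in AKIT replicates 1 and 2 but 0.0868 RPKM (2 reads) in AKIT replicate 3, against 1.33 and 1.35 RPKM in E8. In all of these genes, named after their values were seen, AKIT replicates 1 and 2 were above both E8 libraries and AKIT replicate 3 was below both.

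Without AKIT replicate 3, 3 of the 20 glycolytic and 3 of the 33 further targets rose, in addition to BNIP3, and IGFBP3 still fell. In that fit 12.2% of all tested genes were called, 4.62% higher and 7.55% lower. The targets that rose were SLC16A3 (log2 difference 1.29), PDK1 (0.63) and the glucose transporter SLC2A3 (0.59), and NDUFA4L2 (3.21), BHLHE41, a helix-loop-helix repressor (1.78), and PLOD2, a collagen lysyl hydroxylase (0.65), with limma adjusted p between 0.00418 and 0.0458. Over all alternatives the highest adjusted p was 0.987 for SLC16A3, 0.986 for PDK1, 0.84 for SLC2A3, 0.69 for NDUFA4L2, 0.269 for BHLHE41 and 0.601 for PLOD2. BHLHE41 lay at the threshold with all libraries (log2 difference 1.37 ± 0.39, limma adjusted p = 0.0503) and was called under 7 of the 15 alternatives. ADM and STC1 were lower than E8 with or without that library, with log2 differences of -2.04 and -2.42 without it (limma adjusted p = 0.00479 and 0.00262). Without AKIT replicate 1, 2 of the further targets fell (13.9% of all tested genes were called in that fit, 8.5% lower), the added one being DDIT4, an inhibitor of mTORC1 signalling, at 144, 28.0 and 25.0 RPKM in AKIT and 56.2 and 62.4 RPKM in E8 (log2 difference -1.13 without it, limma adjusted p = 0.00808, up to 0.979 over all alternatives). Without AKIT replicate 2, 3 fell and 1 rose among the further targets and 1 glycolytic target rose, that is 4 of 33 and 1 of 20, against 32.2% of all tested genes called in that fit. Without E8 replicate 1 or 2 none of the genes of both lists was called, and 2.69% and 2.66% of all tested genes were.

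**Figure D4:**
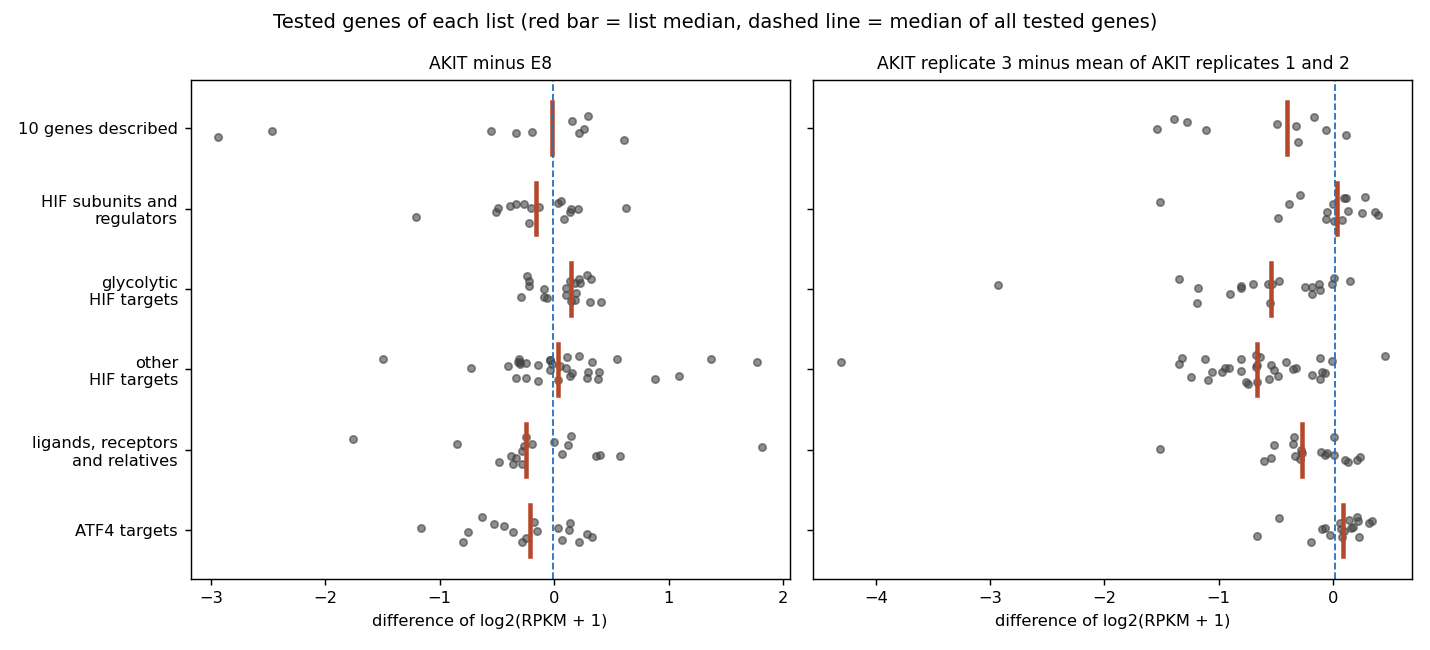
Tested genes of 6 lists, 1 point per gene, with the list median as a red bar and the median of all tested genes as a dashed line. The left panel gives AKIT minus E8 and the right panel AKIT replicate 3 minus the mean of AKIT replicates 1 and 2, both on the log2(RPKM + 1) scale. On the left the medians lie between -0.25 and 0.15. On the right those of the 10 genes, the glycolytic targets and the other HIF targets lie at -0.40, -0.54 and -0.66, against 0.02 for all tested genes.

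Among 16 subunits and regulators of HIF, 2 fell and 1 rose (18.8% called, against 20.0% of all genes), with a median log2 difference of -0.16. CITED2, a HIF target that competes with HIF1A for the coactivators CBP and p300, stood at 39.6, 54.8 and 38.0 RPKM in AKIT, against 103 and 100.5 RPKM in E8. All AKIT libraries were far below both E8 libraries, and CITED2 fell by 1.21 ± 0.16 (limma adjusted p = 0.00443). ARNT2, a beta subunit, fell to 3.26 ± 0.249 RPKM in AKIT, against 5.07 ± 0.579 in E8 (limma adjusted p = 0.032), while the main beta subunit ARNT had 9.63 to 10.2 RPKM in AKIT and 9.55 to 9.77 RPKM in E8. TCEB2, elongin B of the VHL ligase, rose to 31.1 ± 5.03 RPKM in AKIT, against 19.5 ± 0.899 in E8 (limma adjusted p = 0.0262). EGLN1, the main HIF prolyl hydroxylase and itself a HIF target, was at 6.77, 6.28 and 1.65 RPKM in AKIT and 5.33 and 6.02 RPKM in E8, with AKIT replicate 3 the lowest (limma adjusted p = 0.63). In this list AKIT replicate 3 was below both other AKIT libraries for 4 of 16 genes (25.0%), against 28.0% of all tested genes. The calls of ARNT2 and TCEB2 each ended when AKIT replicate 1, AKIT replicate 3 or an E8 library was left out and under the replicate block, and that of ARNT2 also with no filter on low values (limma adjusted p up to 0.272 and 0.194), and that of CITED2 without E8 replicate 1 or 2 (0.0582 and 0.0547, the first being the highest over all alternatives).

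Both main receptors of VEGFA passed the test, FLT1 lower and KDR higher in AKIT. Of 19 tested ligands, receptors and relatives of the 10 genes, 3 fell and 1 rose (21.1% called, against 20.0% of all tested genes). FLT1, a VEGF receptor that binds VEGFA tightly and signals weakly, stood at 4.58, 4.46 and 4.32 RPKM in AKIT, against 17.8 and 17.1 RPKM in E8 (log2 difference -1.76 ± 0.10, limma adjusted p = 0.000415). KDR, the main signalling receptor of VEGFA, stood at 133, 112 and 85.5 RPKM in AKIT, against 29.4 and 30.6 RPKM in E8 (1.82 ± 0.18, limma adjusted p = 0.00178). FLT1 fell and KDR rose with either E8 library or any AKIT library left out (highest limma adjusted p 0.0132 and 0.0346). AKIT replicate 3 was the lowest AKIT library for both, by a narrow margin for FLT1.

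CALCRL, the receptor of adrenomedullin, did not reach the filter, at 0.327, 0.103 and 0.165 RPKM in AKIT and 1.04 and 0.826 RPKM in E8. With no filter on low values CALCRL fell by 0.69 (limma adjusted p = 0.0163). It also fell without AKIT replicate 1 or 2 (limma adjusted p = 0.0339 and 0.0277), and was called under no other alternative. RAMP2, its partner protein, was at 10.6, 9.84 and 8.33 RPKM in AKIT and 11.4 and 14.2 RPKM in E8 (limma adjusted p = 0.106). ADM2, a related peptide, was at 8.58 to 10.8 RPKM in AKIT and 7.95 to 9.81 RPKM in E8 (limma adjusted p = 0.476). Of the relatives of NDRG1, NDRG2 fell to 8.60 ± 1.14 RPKM in AKIT, against 16.3 ± 0.543 in E8 (limma adjusted p = 0.00647), and NDRG4 to 12.7 ± 1.74, against 18.0 ± 0.165 (limma adjusted p = 0.0418). Both calls ended without E8 replicate 1 or 2, and that of NDRG4 also without AKIT replicate 1 or 3, with no filter on low values, without limma's trend and under the replicate block, so that it was called under 8 of the 15 alternatives (limma adjusted p up to 0.0842 for NDRG2 and 0.245 for NDRG4).

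Genes of the ATF4 stress response were also counted, since STC2, VEGFA and NDRG1 belong to it as well. Of 18 tested genes, 5 fell and 0 rose (27.8% called), with a median log2 difference of -0.21. Among all tested genes 20.0% were called, 11.7% lower and 8.22% higher. Voom on recovered reads also called 0 higher, and 2 higher genes had an unadjusted p under 0.05 in limma. ASNS, asparagine synthetase, fell to 17.7 ± 3.75 RPKM in AKIT, against 40.2 ± 1.48 in E8 (limma adjusted p = 0.00661), and CHAC1, TRIB3 and ATF5 fell by 0.80, 0.75 and 0.63 on the log2 scale (limma adjusted p = 0.00995, 0.0391 and 0.0138). The fifth was PHGDH, of serine synthesis, which fell by 0.53 (limma adjusted p = 0.017). In this list AKIT replicate 3 was below both other AKIT libraries for 3 of 18 genes (16.7%). Without E8 replicate 1 or 2 none of these genes was called. Without AKIT replicate 2, 6 fell and 2 rose, while 17.8% of all tested genes fell and 14.5% rose. TRIB3 also lost its call without AKIT replicate 3, under the replicate block and with no filter on low values (limma adjusted p = 0.0829, 0.0574 and 0.0712, up to 0.231 over all alternatives).

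The genes whose pattern over the 5 libraries was most like that of STC1 and ADM were sought among 9472 tested genes averaging 5 RPKM or more. Likeness was the Euclidean distance between log2(RPKM + 1) values centred on each gene's mean. For STC1 the nearest genes were SFRP1, a secreted Wnt antagonist (distance 0.40), ADM (0.59) and SOX21, a SOX factor (0.82). For ADM they were STC1 (0.59), ID2, an inhibitor of helix-loop-helix factors (0.60), and PCDH8, a protocadherin (0.67). SFRP1 was at 26.3, 26.2 and 10.4 RPKM in AKIT and 186 RPKM in each E8 library, and ID2 at 19.0, 16.1 and 11.4 RPKM in AKIT and 83.0 and 88.3 RPKM in E8. All of these genes were lowest in AKIT replicate 3, which follows in part from their choice by likeness to STC1 and ADM, both lowest there. The distance is a description over 5 libraries that share the 2 media, and large differences between media dominate it.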

How the data were processed

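RNA of KhES-1 cells was column-purified and sequenced on Illumina libraries, per the labels' protocols. The authors deposited RPKM values per gene symbol, with hg19 and GRCh37 as builds per the submitters' processing notes. The sources used here do not give aligner, counter, annotation or strand use. Columns were matched to samples by title and 5 of 6 samples were used, 3 from AKIT and 2 from E8, in place of the planned 3 and 3.

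Whole reads were recovered from the steps of the deposited RPKM values (tolerance 0.02 reads, 100% of 19892 genes above 0, reads over genes 99.0% of each total) and used for depth, library pairs and 1 alternative. Genes were tested on log2(RPKM + 1) by limma 3.58.1 under R 4.3.3, its variance prior following mean level, where the mean reached 0.5 RPKM (14776 genes), two-sided, Benjamini-Hochberg adjusted at 0.05 over all of them, with no covariate. Members, lists, tests and alternatives were chosen with earlier results of these data known. Named were the 10 genes, up to 4 called genes per list and direction by size of change (the 2 with the smallest p where none was called) and the 3 genes nearest in pattern to STC1 and ADM. PKM, of the glycolytic list, was not analysed here. BNIP3L, EGLN1, EGLN2 and VLDLR stand in 2 lists each. The 15 alternatives were other pseudocounts, filters, scalings and weights, a replicate block, voom, and each library left out in turn.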

Additional observations from a re-analysis of the deposited data

How the results depend on the processing

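The fall of ADM and STC1 kept its direction under all 15 alternatives (log2 difference -2.79 to -2.04 for ADM and -3.25 to -2.42 for STC1) and its call under 13, the exceptions being the fits without E8 replicate 1 or 2, in which the lone E8 library is assumed to vary like the AKIT libraries. Over all genes 1214 rose and 1736 fell, and with array weights 2269 rose and 2740 fell. Array weights also called EPAS1 and HIF1A, so that 2 of the 10 genes rose, and 3 fell with EGLN3. With each library left out in turn, 142 to 2132 genes rose and 250 to 2619 fell, and of the 10 genes 0 to 1 rose and 0 to 4 fell. STC2 changed direction without AKIT replicate 1 (log2 difference -0.19 to 0.34 over the libraries left out), and the cause was not tested. The replicate numbers are not stated to mark a shared culture or day, and deviations of same-numbered libraries from their group means had r = -0.0013 for replicate 1 and 0.025 for replicate 2, across genes. With the replicate block 492 genes rose and 824 fell, and 1 of the 10 genes rose, BNIP3 by 0.76 (limma adjusted p = 0.0257). That block leaves AKIT replicate 3, which has no partner, with no weight in the difference. Of 419 values of the 28 named genes under the alternatives, 367 kept direction and side of the threshold. Median-of-ratios scaling and quantile normalization changed no call of these 28 genes and moved the median of all genes to 0.003 and 0.027. EPAS1 could not be fitted at a minimum mean of 2 RPKM, which it does not reach, and the fit without E8 replicate 3 was not run. With 2 E8 libraries and a wide spread among the AKIT libraries, small differences may have been missed, and no detection limit was computed.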
